A study of Mus musculus with 10 samples.

Results

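The sterol regulatory element binding proteins (SREBPs) and the proteins that release them from membranes were followed in mouse liver, as 9 genes: Srebf1, Srebf2, Scap, Insig1, Insig2, Mbtps1, Mbtps2, Erlin1 and Erlin2. The genes were chosen by name for their role in SREBP processing, with earlier results of these data known. All 9 were among the 24421 genes listed, and all 9 had counts high enough to enter the 11092 genes tested. Hepatic mRNA came from 10 male C57BL/6 mice, 21 weeks old, with free access to food. The Chow group (n = 5) ate standard chow and the TM5614 group (n = 5) ate the same chow with TM5614 mixed in, at 20 mg/kg/day over 10 days. This compound is an oral small-molecule inhibitor of plasminogen activator inhibitor 1 (PAI-1), and a single dose and a single time point were sampled. The question here was whether transcripts of the SREBP system differed with the inhibitor.

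SREBPs are transcription factors made as precursors in the membrane of the endoplasmic reticulum. When sterols are scarce, the escort protein SCAP carries them to the Golgi, where site-1 protease (Mbtps1) and site-2 protease (Mbtps2) cut them and free the part that enters the nucleus. INSIG proteins hold SCAP back in the endoplasmic reticulum, and the erlins bind there as well and take part in INSIG degradation and SREBP retention. Srebf1 is best known in liver for driving fatty acid synthesis and Srebf2 for driving cholesterol synthesis and uptake. Insig1 is itself a target of SREBPs, while liver Insig2 is known mostly for regulation by insulin and fasting. The measurements below are of mRNA, so they hold no information on cleavage, nuclear entry or protein level.

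Libraries held from 6398335 counts (Chow replicate 4) to 10874955 counts (Chow replicate 2). Of the genes tested, 499 (4.50%) passed an edgeR adjusted p of 0.05, 192 higher (1.73%) and 307 lower (2.77%) with TM5614, and the median log2 fold change over all of them was 0.01. The CPM of the groups did not overlap in 991 genes (8.93%). CPM are counts scaled by library size. A pair of libraries stood apart. Chow replicate 2 correlated with its own group at a mean of 0.927 against 0.965 to 0.970 for the other 4 Chow libraries, and GC content and gene length accounted for 46.0% of its deviation against at most 11.5% in any other library. TM5614 replicate 2 held 33698 counts of skeletal muscle genes, 0.456% of its total, against at most 14 in any Chow library and 680 in TM5614 replicate 3. Results for the 9 genes that move with either library are given with and without it.

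For the 4 genes whose mRNA passed the threshold, promoter windows are shown as a description. Each is 300 bases in RefSeq on GRCm38.p6, with 250 bases before the annotated start and 50 after it, and is written 5′ to 3′ on the gene's own strand. RefSeq held a window for 8 of the 9 genes, and Erlin2 had none. Capitals mark 3 motifs, searched on both strands and not overlapping in these windows: the core of the sterol regulatory element (SRE, TCACNCCA), the E-box CACGTG and the CCAAT box. On a minus-strand match the capitals show the reverse complement. Srebf1 is shown at the start of chr11:60210422-60210721 (minus strand), Srebf2 at chr15:82147019-82147318 (plus strand), Insig1 at chr5:28071162-28071461 (plus strand) and Insig2 at chr1:121332540-121332839 (minus strand).
Srebf1: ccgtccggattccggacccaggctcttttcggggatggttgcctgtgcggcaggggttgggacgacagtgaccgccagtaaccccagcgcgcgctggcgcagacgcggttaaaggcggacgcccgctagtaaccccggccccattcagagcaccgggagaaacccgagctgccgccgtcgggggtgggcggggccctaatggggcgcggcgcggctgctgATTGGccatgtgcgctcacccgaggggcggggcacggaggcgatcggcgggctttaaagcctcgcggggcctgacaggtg
Srebf2: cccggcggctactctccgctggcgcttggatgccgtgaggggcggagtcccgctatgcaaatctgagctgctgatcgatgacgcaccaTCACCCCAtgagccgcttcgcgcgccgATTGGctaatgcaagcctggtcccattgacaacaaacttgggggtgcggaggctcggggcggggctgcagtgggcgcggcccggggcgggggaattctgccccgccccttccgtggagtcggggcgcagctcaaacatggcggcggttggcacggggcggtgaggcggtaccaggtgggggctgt
Insig1: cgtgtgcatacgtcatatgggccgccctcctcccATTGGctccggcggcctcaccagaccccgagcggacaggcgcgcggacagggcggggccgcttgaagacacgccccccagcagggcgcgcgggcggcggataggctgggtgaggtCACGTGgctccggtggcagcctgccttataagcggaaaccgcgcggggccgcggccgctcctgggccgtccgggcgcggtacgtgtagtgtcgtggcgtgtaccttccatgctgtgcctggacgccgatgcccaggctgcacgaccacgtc
Insig2: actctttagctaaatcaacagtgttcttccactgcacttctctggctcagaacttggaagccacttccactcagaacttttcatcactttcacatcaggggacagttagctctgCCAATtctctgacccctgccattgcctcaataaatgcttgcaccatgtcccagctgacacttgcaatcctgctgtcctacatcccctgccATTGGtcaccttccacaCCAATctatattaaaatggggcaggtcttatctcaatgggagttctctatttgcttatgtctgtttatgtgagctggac

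The Srebf2 window held the SRE core as TCACCCCA at position -162 and a CCAAT box at -135. The SRE core was present in 4.36% of the 32851 mouse windows of this length, and in no window of the other 7 genes searched. The Insig1 window held an E-box at -101, a motif present in 7.15% of all windows, and a CCAAT box at -216. The Insig2 window, at the most upstream of its annotated starts, held 3 CCAAT boxes, at -136, -46 and -29. The windows of its other starts held none, and 37.4% of all windows held at least 1. The Srebf1 window, at the most downstream of its annotated starts, held a CCAAT box at -30 and no exact match to TCACNCCA or CACGTG. Looser spellings of the SRE and the E-box were not searched, so the window cannot be said to lack them. Of the other Srebf1 windows, the most upstream held 1 CCAAT box and the next held none. The windows printed for Srebf1 and Insig2 were chosen after their matches were seen. Srebf1 and Insig2 each had 3 annotated starts and the counts do not separate them, so a change in either gene cannot be assigned to a start. A match is a run of letters and was not tested for binding.

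Both SREBP genes were lower with TM5614. Srebf1 (GRCm38 chr11:60199089-60222581, minus strand) had 94.7, 145, 136, 86.7 and 92.0 CPM in Chow replicates 1 to 5, and 33.0, 41.0, 24.0, 25.4 and 31.1 CPM in TM5614 replicates 1 to 5. The highest treated library was below the lowest Chow library. The mean was 111 ± 27.2 CPM in Chow and 30.9 ± 6.81 CPM in TM5614 (SD, n = 5), a 3.59-fold lower level (log2 fold change -1.84 ± 0.19, SE; edgeR adjusted p = 0.000402). Srebf1 ranked 15 among the 11092 genes tested by adjusted p. It shares 109 exon bases with Rai1 on the opposite strand, and the use of strand in counting was not stated, but Rai1 held only 778 counts over all 10 libraries.

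Srebf2 (chr15:82147181-82205379, plus strand) had 60.2, 50.9, 81.7, 51.0 and 65.7 CPM in the Chow libraries and 33.5, 22.6, 27.8, 30.6 and 37.3 CPM in the TM5614 libraries. The groups did not overlap here either. The mean went from 61.9 ± 12.7 to 30.3 ± 5.58 CPM (SD, n = 5), 2.04-fold lower (log2 fold change -1.03 ± 0.17; edgeR adjusted p = 0.00471). Both kept the direction and passed the threshold under each of the 22 alternatives, from -1.97 to -1.69 for Srebf1 and from -1.11 to -0.91 for Srebf2 on the log2 scale.

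Per length, the deposited FPKM of Srebf1 was 1.95 ± 0.609 times that of Srebf2 in Chow and 1.13 ± 0.451 times in TM5614 (SD, n = 5). The sum of the 2 genes was 38.8 ± 7.50 FPKM in Chow and 13.6 ± 1.58 FPKM in TM5614. On the log2 scale of CPM, the ratio of Srebf1 to Srebf2 was 0.65, 1.51, 0.73, 0.76 and 0.49 in the Chow libraries and -0.02, 0.86, -0.21, -0.27 and -0.26 in the TM5614 libraries. The groups overlapped only through TM5614 replicate 2, which lay above all Chow libraries but replicate 2. The difference was -0.81, or 1.75-fold (exact two-sided permutation test over 252 splits, p = 0.0397, adjusted p = 0.0397 over 4 pairs). It kept its sign but missed the threshold when any library other than TM5614 replicate 2 was left out, with -0.64 (adjusted p = 0.0794, exact permutation) without Chow replicate 2 and -1.02 without TM5614 replicate 2.

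**Figure D1:**
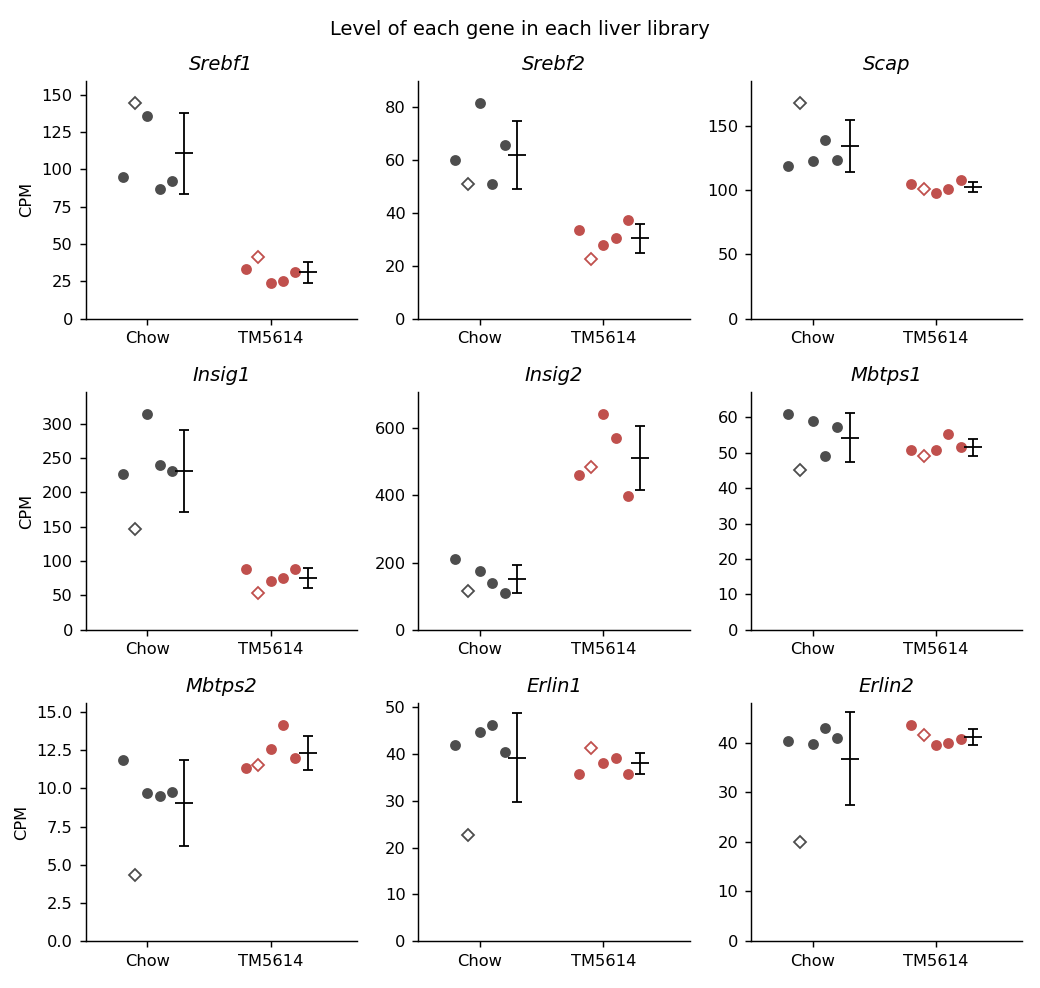
Level in CPM (y axis, from 0) of each of the 9 genes in each library, with Chow in grey and TM5614 in red (x axis); open diamonds are replicate 2 of each group and bars are the mean ± SD (n = 5). In Srebf1, Srebf2, Scap, Insig1 and Insig2 no TM5614 library lies within the range of the Chow libraries, and in Erlin1 and Erlin2 Chow replicate 2 lies far under the other 4.

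The INSIG genes went in opposite directions. Insig1 (chr5:28071363-28078662, plus strand) had 227, 146, 315, 240.2 and 231 CPM in Chow and 88.3, 53.3, 71.0, 76.1 and 89.0 CPM in TM5614. Every treated library was below every Chow library, and replicate 2 was the lowest of its group in both. The mean was 232 ± 59.7 CPM against 75.5 ± 14.6 CPM (SD, n = 5), 3.07-fold lower (log2 fold change -1.62 ± 0.20; edgeR adjusted p = 0.000945).

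Insig2 (chr1:121304353-121332589, minus strand) was the 1 gene of the 9 that rose. It had 211, 116, 174, 140.4 and 110.4 CPM in Chow and 461, 484, 643, 571 and 399 CPM in TM5614. The lowest treated library lay well above the highest Chow library. The mean went from 151 ± 42.2 to 511 ± 95.9 CPM (SD, n = 5), 3.40-fold higher (log2 fold change 1.76 ± 0.20; edgeR adjusted p = 0.000549). Over the 22 alternatives Insig1 lay between -1.75 and -1.48 and Insig2 between 1.67 and 1.91 on the log2 scale, and both passed the threshold in each.

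Because the 2 INSIG proteins both retain SCAP, their levels per length were set side by side. In Chow, Insig1 stood at 86.5 ± 22.4 FPKM and Insig2 at 50.4 ± 14.3 FPKM, and in TM5614 they stood at 28.2 ± 5.62 and 171 ± 32.3 FPKM (SD, n = 5). Insig2 made up 45.6%, 41.6%, 33.2%, 34.4% and 30.0% of the INSIG sum in Chow replicates 1 to 5. It made up 82.4%, 89.1%, 89.0%, 87.1% and 80.1% in TM5614 replicates 1 to 5. Insig1 was thus the more abundant transcript in every Chow library and Insig2 in every TM5614 library. The log2 ratio of Insig1 to Insig2 in CPM ranged from 0.10 to 1.07 in Chow and from -3.18 to -2.16 in TM5614. Its means differed by -3.39, or 10.5-fold (exact two-sided permutation p = 0.00794, the smallest that 252 splits allow; adjusted p = 0.0159 over 4 pairs).

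The INSIG sum overlapped between the groups. It was 137 ± 31.5 FPKM in Chow, with libraries from 93.6 to 176, and 199 ± 30.9 FPKM in TM5614, with libraries from 167 to 241 (SD, n = 5). The sum was not tested. Relative to Scap, the INSIG sum was 4.58 ± 1.48 in Chow and 8.48 ± 1.60 in TM5614, with ranges of 2.41 to 6.22 and 6.68 to 10.7 that did not overlap. These are ratios of transcripts per length and not of proteins.

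**Figure D2:**
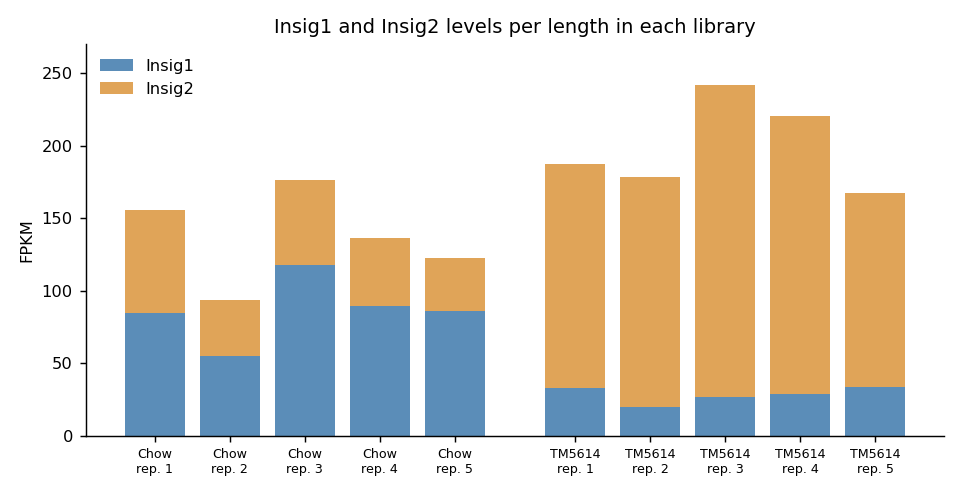
Deposited FPKM (y axis) of Insig1 (blue) and Insig2 (orange), stacked, in each of the 10 libraries (x axis). Insig2 is 30.0% to 45.6% of the bar in the Chow libraries and 80.1% to 89.1% in the TM5614 libraries.

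Scap, the escort that INSIGs hold and SREBPs need, was lower by a small amount. Scap (chr9:110333288-110384950, plus strand) had 119, 168, 123, 139 and 124 CPM in Chow and 105, 101, 97.6, 101 and 108 CPM in TM5614. All 5 treated libraries lay below the lowest Chow library, and Chow replicate 2 was the highest. The mean was 134 ± 20.4 against 103 ± 4.11 CPM (SD, n = 5), and the log2 fold change of -0.39 ± 0.11 did not pass (edgeR adjusted p = 0.0774). Without Chow replicate 2 the estimate was smaller and passed, at -0.30 ± 0.07 (edgeR adjusted p = 0.0213). It also passed in DESeq2 at -0.40 (adjusted p = 0.0189) and in limma-voom with sample quality weights at -0.29 (adjusted p = 0.0185). With a correction for GC content and length it was -0.23 ± 0.08 and did not pass (edgeR adjusted p = 0.109). An antisense gene model, 5830462I19Rik, shares 985 exon bases with Scap.

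The proteases showed no change that passed the test. Mbtps1, the serine protease that makes the first cut, lies at chr8:119508156-119558735 on the minus strand. It had 61.0, 45.1, 58.9, 49.0 and 57.4 CPM in Chow and 50.8, 49.1, 50.7, 55.4 and 51.6 CPM in TM5614. The groups overlapped, and the log2 fold change was -0.08 ± 0.11 (edgeR adjusted p = 0.716). Mbtps2, the metalloprotease that makes the second cut within the membrane, lies at chrX:157535371-157598715 on the minus strand. It had 11.9, 4.34, 9.71, 9.51 and 9.75 CPM in Chow and 11.3, 11.5, 12.6, 14.2 and 12.01 CPM in TM5614. The log2 fold change was 0.45 ± 0.22 with all libraries and 0.27 ± 0.12 without Chow replicate 2, its lowest library, and neither passed (edgeR adjusted p = 0.264 and 0.192).

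Mbtps2 was the rarest of the 9, with 45 to 106 counts per Chow library and 79 to 124 per TM5614 library. Counting alone gives a coefficient of variation of 14.9% at its lowest count, the 45 of Chow replicate 2. That library had the highest total of the 10, at 10874955 counts. Mbtps2 shares 2867 exon bases with Yy2 on the same strand, a gene with 66 counts in all 10 libraries. The log2 ratio of Mbtps1 to Mbtps2 was 2.36, 3.38, 2.60, 2.36 and 2.56 in Chow and 2.16, 2.09, 2.01, 1.97 and 2.10 in TM5614. Each treated library was below each Chow library. The difference was -0.59 (exact two-sided permutation p = 0.00794, adjusted p = 0.0159 over 4 pairs) and -0.40 without Chow replicate 2 (adjusted p = 0.0317).

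The erlins, prohibitin-family proteins of the endoplasmic reticulum, also showed no change that passed. Erlin1 (chr19:44034944-44069785, minus strand) had 42.0, 22.7, 44.7, 46.3 and 40.4 CPM in Chow and 35.8, 41.3, 38.2, 39.1 and 35.8 CPM in TM5614. Its log2 fold change was -0.04 ± 0.17 with all libraries (edgeR adjusted p = 0.910) and -0.19 ± 0.08 without Chow replicate 2 (adjusted p = 0.146). Erlin2 (chr8:27023261-27040328, plus strand) had 40.4, 20.1, 39.9, 42.9 and 41.0 CPM in Chow and 43.7, 41.5, 39.6, 40.0 and 40.9 CPM in TM5614. Its log2 fold change was 0.16 ± 0.18 with all libraries (edgeR adjusted p = 0.631) and -0.0048 ± 0.07 without Chow replicate 2 (adjusted p = 0.981). Without that library the Chow means were 43.3 ± 2.64 and 41.1 ± 1.34 CPM (SD), against 39.2 ± 9.52 and 36.9 ± 9.46 CPM with it.

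The log2 ratio of Erlin1 to Erlin2 spanned a narrow range, from -0.02 to 0.18 in Chow and from -0.29 to -0.01 in TM5614. The ranges overlapped slightly and the means differed by -0.21, or 1.16-fold (exact two-sided permutation p = 0.0159, adjusted p = 0.0212 over 4 pairs). Chow replicate 2, low in both genes, had a ratio of 0.18, close to the 0.16 of Chow replicate 3.

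**Figure D3:**
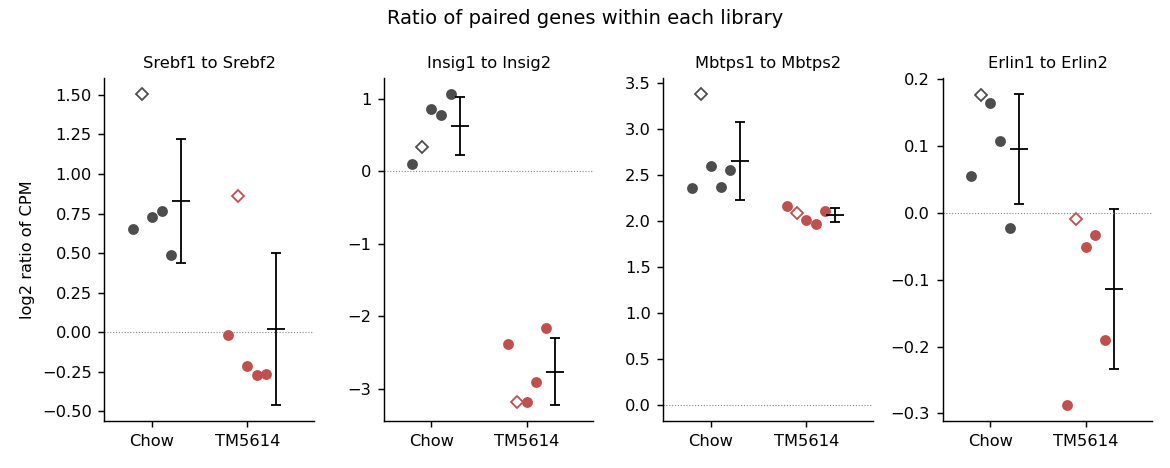
Log2 ratio of CPM within each library (y axes, scaled separately) for Srebf1 to Srebf2, Insig1 to Insig2, Mbtps1 to Mbtps2 and Erlin1 to Erlin2 in Chow (grey) and TM5614 (red); open diamonds are replicate 2 and bars the mean ± SD (n = 5). The Insig1 to Insig2 ratio lies above 0 in all Chow libraries and under -2 in all TM5614 libraries, while replicate 2 is the highest of its group for Srebf1 to Srebf2 in both groups.

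Of the 9 genes, 4 passed the threshold (44.4%, against 4.50% of all genes tested), 3 of them lower (33.3%, against 2.77%) and 1 higher (11.1%, against 1.73%). Groups did not overlap in 5 of the 9 (55.6%, against 8.93%). The 9 were chosen with earlier results of these data known, so these contrasts are not independent evidence. For the 5 that did not pass, the estimates lay between -0.39 and 0.45 on the log2 scale, with standard errors of 0.11 to 0.22. Within Chow, their coefficients of variation in CPM were 12.6% to 31.0% with all 5 libraries and 3.26% to 10.97% without replicate 2. Within TM5614 they were 3.91% to 9.19%. The 4 genes that passed varied by 20.6% to 28.1% in Chow and 18.4% to 22.0% in TM5614.

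**Figure D4:**
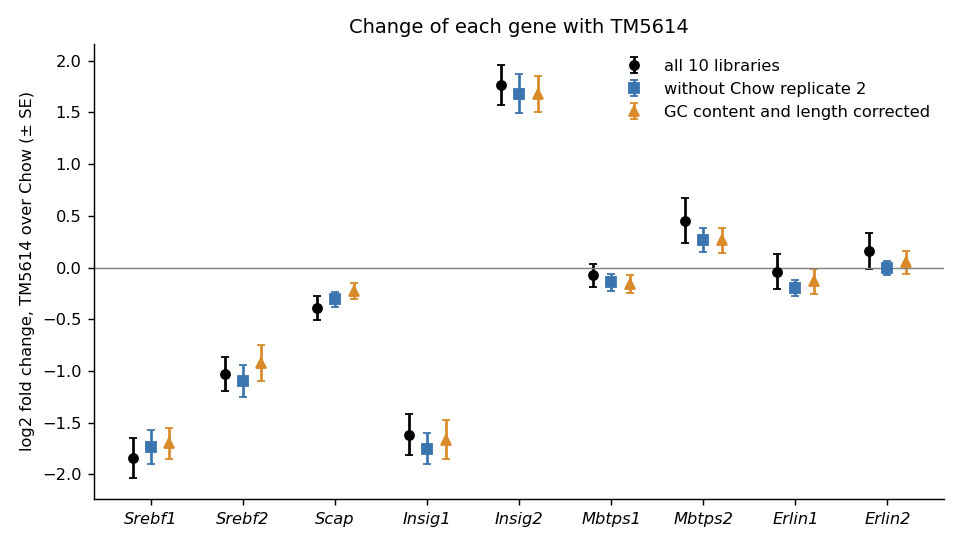
Log2 fold change of TM5614 over Chow ± SE (y axis) for each gene (x axis) from edgeR with all 10 libraries (black circles), without Chow replicate 2 (blue squares) and with a correction for GC content and length (orange triangles). The 4 genes that passed keep their direction and about their size, from -1.84 to -1.70 for Srebf1 for example, while Erlin2 moves from 0.16 to values near 0.

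Ranked by FPKM, the order in Chow ran Insig1, Insig2, Scap, Srebf1, Srebf2, Mbtps1, Erlin1, Erlin2 and Mbtps2. Neighbours in this order overlapped between libraries except Srebf1 over Srebf2 and Erlin2 over Mbtps2. In TM5614 the order ran Insig2, Insig1, Scap, Mbtps1, Erlin1, Erlin2, Srebf1, Srebf2 and Mbtps2. There the ranges separated at Insig2 over Insig1, Scap over Mbtps1, Erlin2 over Srebf1 and Srebf2 over Mbtps2. Srebf1 stood at 25.5 ± 6.29 FPKM in Chow, above both erlins and Mbtps1, and at 7.07 ± 1.501 FPKM in TM5614, below all 3. Mbtps2 was the lowest in both groups, at 1.86 ± 0.578 and 2.53 ± 0.246 FPKM.

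The genes whose log2 CPM followed each changed gene most closely over the 10 libraries were then named, as a description, since the points share libraries and the difference between groups. For Srebf2, 4 of the 5 closest were enzymes of cholesterol synthesis: Sqle (Pearson r = 0.988, and 0.938 after the group means were removed), Cyp51 (0.987 and 0.944), Msmo1 (0.981 and 0.917) and Lss (0.979 and 0.916). The remaining gene was Slc46a3 (0.982 and 0.903). For Insig1 they included 1810046K07Rik (0.988 and 0.962), Msmo1 (0.975 and 0.797), the clock gene Per3 (0.974 and 0.838) and Srebf2 itself (0.972 and 0.848). For Srebf1 they were Nit2 (0.990 and 0.889), Mid1ip1 (0.981 and 0.791), Gsta3 (0.980 and 0.763), Mov10 (0.977 and 0.791) and Hsd3b3 (0.972 and 0.686). For Insig2 they were Leo1 (0.994 and 0.949), St5 (0.987 and 0.870), Slc16a1 (0.981 and 0.889), Clpx (0.980 and 0.854) and Rab30 (0.978 and 0.838).

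Other genes that act on SREBPs were taken from 4 lists. Of their 59 tested genes 4 passed (6.78%, against 4.50% of all genes tested), a share near that of all genes in this fit. Over the 22 alternatives 0 to 15 of them passed, against 235 to 1386 of all genes. In limma-voom 14 of the 59 passed and 1386 of all genes did, a larger share for these lists. Of 16 genes of INSIG turnover and degradation at the endoplasmic reticulum, 1 was lower, none was higher, and the median log2 fold change was 0.16, against 0.01 over all genes. The 1 was Rnf5, a ubiquitin ligase of that membrane (53.1 ± 5.39 against 37.1 ± 3.85 CPM, SD, n = 5; log2 fold change -0.52; edgeR adjusted p = 0.023), and its call was lost in 4 of the 10 fits without 1 library: Chow replicate 3 and TM5614 replicates 1, 3 and 5. Without Chow replicate 2, 4 more of these genes passed as higher, Vcp, Ufd1l, Ube2g2 and Ubxn4. Of 14 genes of the COPII coat and of Golgi anchoring, through which SCAP travels, none passed in edgeR (1 at an unadjusted p under 0.05, none in DESeq2, 2 in limma-voom, and Sec24d without Chow replicate 2), and the median was 0.22, with Sar1b at 0.22 and Sec24a at 0.18 the most abundant. Of 6 tested genes for other substrates of the proteases none passed in edgeR (none at an unadjusted p under 0.05, none in DESeq2, 1 in limma-voom, and Creb3 without Chow replicate 2), with a median of 0.13. Of these, Creb3l3 was at 0.14 and Atf6 at 0.20.

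Among 23 genes of nuclear SREBP turnover, import and coregulation, 1 was higher and 2 were lower, with a median of -0.07. Nfya, a subunit of the CCAAT-binding factor that works beside SREBPs, rose from 6.78 ± 1.27 to 11.2 ± 2.30 CPM (log2 fold change 0.72; edgeR adjusted p = 0.0464). The coactivator Ppargc1b fell (-0.83; edgeR adjusted p = 0.0417), as did Rxra, the partner of LXR (-0.38; edgeR adjusted p = 0.0417). These calls were not stable. With each library left out in turn, Nfya lost its call in 8 of 10 fits, Ppargc1b in 7 and Rxra in 9, and the latter pair also without TM5614 replicate 2. All 3 lost it without Chow replicate 1 or 4 and without TM5614 replicate 1, 3, 4 or 5. Without Chow replicate 2 all 3 kept it and Kpnb1 was added. Of 8 LXR targets other than Srebf1, none passed in edgeR (1 at an unadjusted p under 0.05, 1 in DESeq2, 2 in limma-voom), with a median of -0.19, and the most abundant were Abcc3 at -0.13 and Abca1 at 0.24.

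Targets of the factors showed larger differences, and they were listed by branch. Of 23 genes of the sterol branch, the class known for SREBP-2, 19 were lower and none was higher, with a median log2 fold change of -1.43. The share that passed was 82.6%, against 4.50% of all genes tested. Fdps went from 108 ± 54.4 to 13.5 ± 3.61 CPM (log2 fold change -2.99), Mvd from 15.9 ± 8.73 to 2.05 ± 0.498 CPM (-2.95), Sqle from 71.1 ± 30.7 to 9.80 ± 5.90 CPM (-2.85) and Msmo1 from 277 ± 75.8 to 42.6 ± 20.6 CPM (-2.70). All 4 encode enzymes of cholesterol synthesis, and each had a larger log2 fold change than Srebf2 itself, a difference that was not tested. Of 15 tested genes of the fatty acid branch, the class known for SREBP-1, 7 were lower and 1 was higher, with a median of -0.43. Here 53.3% passed, against the same 4.50%. Those with the largest differences were Thrsp (-2.55), Aacs (-1.79), Mid1ip1 (-1.44) and Fasn, the fatty acid synthase (-1.37). Aacs (edgeR adjusted p = 0.0388) lost its call in 7 of the 10 fits without 1 library, all but those without Chow replicate 1, Chow replicate 2 or TM5614 replicate 5. Lower genes numbered 9 without Chow replicate 2, 6 without TM5614 replicate 2 and 4 without TM5614 replicate 3. The 1 that rose was the elongase Elovl5, from 401 ± 82.4 to 973 ± 168 CPM (log2 fold change 1.28; edgeR adjusted p = 0.00149). Both lists were chosen with earlier results of these data known, so their direction is not independent evidence.

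**Figure D5:**
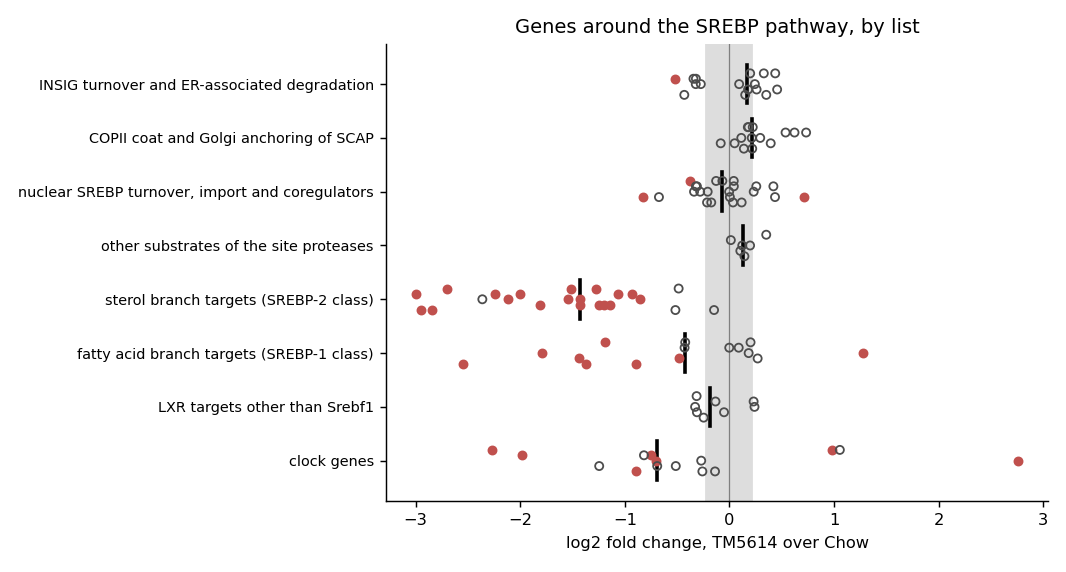
Log2 fold change of TM5614 over Chow (x axis) for each tested gene of 8 lists (y axis); filled red points passed an edgeR adjusted p of 0.05, open points did not, black lines are list medians and the grey band runs between the quartiles of all genes tested, from -0.23 to 0.22. The sterol branch lies at a median of -1.43 with 19 of 23 genes filled, while the INSIG turnover, COPII and protease substrate lists lie near the band.

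Several other measures moved with the groups. Of 15 clock genes tested, 7 passed (46.7%, against 4.50% of all genes tested). Of these, 2 were higher (Arntl, log2 fold change 2.76, and Clock, 0.98) and 5 were lower, among them Per3 (-2.27) and Dbp (-1.99). The labels give no time of collection, Srebf1 and Insig2 are known to cycle over the day in liver, and the part of time in the differences was not tested. The labelled tissue was borne out by hepatocyte markers, all 10 of which were tested. Their summed CPM was 134116 to 144847 in Chow and 114930 to 131980 in TM5614, ranges that did not overlap. None of the 10 passed in edgeR (2 at an unadjusted p under 0.05) and 1 did in DESeq2 and without Chow replicate 2. In bulk tissue fewer cells of a type and less RNA per cell cannot be told apart. All 10 Kupffer cell markers had estimates below 0 (median -0.43) but none passed in edgeR, DESeq2 or limma-voom, nor at an unadjusted p under 0.05, with summed CPM of 83.4 to 264 in Chow and 83.2 to 178 in TM5614. Of 3 adipocyte markers tested, Cidec, a lipid droplet gene that hepatocytes can also express, was higher (4.99 ± 1.30 against 27.1 ± 8.14 CPM), while Adipoq averaged 0.611 and 1.80 CPM. No tested marker of endothelium, stellate cells, cholangiocytes, exocrine pancreas or erythroid cells passed in edgeR. At an unadjusted p under 0.05 there were 1 endothelial and 2 stellate genes, and 1 stellate gene passed in limma-voom. Only 1 pancreas gene and 1 erythroid gene were tested, too few to describe those cell types. Lymphocyte and skeletal muscle markers did not pass the filter on low counts. Without both replicate 2 libraries the log2 fold changes of Srebf1, Srebf2, Insig1 and Insig2 still passed.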

How the data were processed

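Liver mRNA of 5 Chow and 5 TM5614 mice was sequenced (poly(A) libraries, 75 base single-end reads), and sample titles gave groups and replicate numbers. Per the study's methods, reads were aligned with STAR to mm10 in the RNA Express application, and the labels also name HOMER and DESeq2. Tool versions, the annotation and whether counting used strand are not given in the sources used here. For each gene symbol the authors deposited raw whole-number counts, totalling 6398335 to 10874955 per library, FPKM values scaled by length and library, and regularised log2 values. A deposited table of the authors' own comparison (fold changes and p-values) was not used.

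Counts were tested with edgeR 4.0.16 (R 4.3.3; filterByExpr, TMM, glmQLFit and glmQLFTest, two-sided, no block) and adjusted by Benjamini-Hochberg over 11092 genes, with a threshold of 0.05. Standard errors are of the log2 fold change. CPM used TMM factors, log2 CPM for likeness had a prior count of 2, and FPKM served only for levels between genes. Ratios of 4 gene pairs were compared by exact two-sided permutation over samples. Lists were described by counts and medians, naming up to 4 passing genes of largest change or, where none passed, the 2 of highest mean CPM. The 9 genes, the pairs, the lists and the motifs were chosen with earlier results of these data known. Some genes of the lists are not reported here by name. 2410131K14Rik was taken as Spring1, by RefSeq synonyms. Positions came from GENCODE M21 on GRCm38 and sequences from RefSeq on GRCm38.p6.

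Alternatives were DESeq2 1.42.0, limma-voom (limma 3.58.1) with sample quality weights, other scalings and filters, robust dispersion, a replicate block and each library left out. For the ratios they were FPKM, regularised log2 values and 1 CPM added. A GC content and length correction (splines, 5 degrees of freedom; 96.7% of tested genes had a value) and the omission of both replicate 2 libraries were added after seeing the data. Between libraries of a group (20 pairs) chi-square per degree of freedom was at least 7.50, so none was taken as deposited more than once. Tested on simulated data (11000 genes, 200 changed), edgeR recovered 191, with 6 false among 197 calls. DESeq2 recovered 195, with 33 false among 228, and limma-voom 191, with 8 false among 199. These figures are not split by size of difference. Every simulated difference was larger in absolute log2 fold change than those of Srebf2, Scap, the proteases and the erlins. Recovery of differences that small was therefore not tested. Nor was recovery in the presence of a library such as Chow replicate 2. The labels do not name separate litters or collection batches, and the paper describes the controls as age-matched littermates. The p-values set the difference between the groups against the spread between these mice. Mouse numbers ran from 41 to 45 in Chow and from 46 to 50 in TM5614. Cage or collection order, if it followed these numbers, cannot be separated from treatment and was not tested.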

Additional observations from a re-analysis of the deposited data

Results flagged for a closer look

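Each of the 9 genes, and each of the 4 ratios, was examined within each group for a library far from the other 4, by Dixon's test for 5 values. Of 26 groups of values, 5 held such a library, where chance would give about 1.3, and 4 of the 5 were in Chow replicate 2. Erlin1 was at 22.7 CPM there against 40.4 to 46.3 CPM in the other Chow libraries. Erlin2 was at 20.1 CPM against 39.9 to 42.9 CPM. The log2 ratio of Srebf1 to Srebf2 was 1.51 in that library against 0.49 to 0.76, and the log2 ratio of Mbtps1 to Mbtps2 was 3.38 against 2.36 to 2.60. The fifth was the log2 ratio of Srebf1 to Srebf2 in TM5614 replicate 2, at 0.86 against -0.27 to -0.02 in the other TM5614 libraries. GC content and length accounted for 46.0% of the deviation of Chow replicate 2 and 1.68% of that of TM5614 replicate 2, the library with 33698 counts of muscle genes, and the part of either in these values was not tested.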

How the results depend on the processing

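Srebf1, Srebf2, Insig1 and Insig2 kept direction and call under all 22 alternatives, with the replicate block as well, and Mbtps1, Mbtps2, Erlin1 and Erlin2 passed in none. Scap passed in 4 alternatives: DESeq2 (-0.40), limma-voom (-0.29), without Chow replicate 2 (-0.30; -0.44 to -0.30 over the single libraries left out) and without both replicate 2 libraries (-0.29). Near 0 the erlins changed sign. Erlin1 was 0.0043 with library totals alone, 0.011 without Chow replicate 3 and 0.019 without Chow replicate 4. It ran from -0.19 to 0.019 over the single libraries left out and was -0.22 without both replicate 2 libraries. Erlin2 was -0.0048 without Chow replicate 2 and -0.0041 without both replicate 2 libraries, and ran from -0.0048 to 0.21 over the single libraries left out. The number of genes called, 499, was 900 in DESeq2, 1386 in limma-voom, 1230 without both replicate 2 libraries, 771 with the GC content and length correction and the replicate block together, and 235 (without TM5614 replicate 3) to 1031 (without Chow replicate 2) with single libraries left out. The 4 called among the lists of turnover, transport, coregulators and protease substrates became 8 in DESeq2, 14 in limma-voom, 1 with no filter, 15 without both replicate 2 libraries and 0 to 11 with single libraries left out. The 7 clock genes became 11 in DESeq2 and 12 in limma-voom, with the correction and block together and without both replicate 2 libraries, and 5 to 12 with single libraries left out. Fatty acid genes called lower ranged from 4 (without TM5614 replicate 3) to 9, and sterol genes from 18 to 22. The cause of these shifts was not tested.

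Replicate numbers are shared between the groups, but the correlations of paired deviations were 0.03, 0.32, 0.12, 0.03 and 0.25, and 3 of 10 libraries correlated best with their own number, so the numbers were not taken as pairs. With the replicate block the 4 log2 ratios stayed at -0.81, -3.39, -0.59 and -0.21, each at an adjusted p of 0.0625, the smallest that 32 exact sign flips allow. The Srebf1 to Srebf2 ratio ran from -1.02 to -0.64 with single libraries left out and missed the threshold in 9 of the 10, and the other 3 ratios passed in all. Counts were fewest for Mbtps2, at 45 to 124 per library, and the 45 were in Chow replicate 2, the library with the highest total.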
